A study of Mus musculus with 13 samples.

Results

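The proximal straight tubule (PST) cluster of a single-nucleus ATAC-seq (snATAC-seq) atlas of the mouse kidney is described here against the other 12 main clusters of the atlas. Its members were taken from the deposited annotation, which gave 1943 of 28316 nuclei to the cluster. They came from whole kidneys of 5 samples, namely 2 at P0, 1 at P21 and 2 at P56. By the labels these are ages of 0, 21 and 56 days after birth. As in the study, P21 and P56 were combined as adult. No treatment or genetic change was listed for any sample. The sex of the mice, the strain used for nuclei and the number of mice behind each nuclei sample were not stated in the labels, so p-values measure only the spread between these samples. Dissociated cells in 1 library from P0 and 1 from adult kidney (scRNA-seq), from neonates 1 day old and adult C57BL/6 mice by the study's methods, gave a second count of PST cells.

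The proximal tubule begins as a convoluted part in the cortex (PCT) and continues as the straight part, which runs down into the outer medulla. The convoluted part reclaims most of the filtered glucose, phosphate, bicarbonate and amino acids through high-capacity carriers. The straight part takes up what remains with high-affinity carriers such as Slc5a1, secretes organic anions, and in the mouse is known for genes that differ between the sexes, such as the androgen-induced Kap. An open call is a peak with at least 1 fragment in a nucleus. A level is given below on the counts-per-million scale (CPM), with the open calls of the same cluster and sample as the total, since PST nuclei held more open peaks than the other clusters. The gene activity of a gene sums the open calls of the peaks that overlap its body or the 2 kb before its start.

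PST made up 1.4% and 2.09% of the nuclei of the 13 clusters in the P0 samples, 8.18% in the P21 sample, and 9.48% and 13.3% in the P56 samples. These shares rest on 83, 112, 266, 657 and 825 nuclei. Both P0 shares lay below the 3 adult shares, with means of 1.75% ± 0.486 (SD, n = 2) and 10.3% ± 2.67 (SD, n = 3). The difference of -8.58 percentage points gave p = 0.1 in an exact two-sided permutation test, which is the smallest p that 2 against 3 samples allow. Among PST and PCT nuclei alone, PST held 15.0% ± 2.52 at P0 and 20.7% ± 5.90 in adult samples, with overlapping groups (exact permutation p = 0.3). In the scRNA-seq annotation, 2190 of 25138 cells at P0 were PST (8.71%, 95% exact Clopper-Pearson interval 8.37 to 9.07). The adult library gave 7373 of 18498 cells (39.9%, 39.2 to 40.6). PCT held 684 cells at P0 (2.72%, 2.52 to 2.93) and 3003 in the adult library (16.2%, 15.7 to 16.8), so PST outnumbered PCT among these cells at both stages, while PCT outnumbered PST among the nuclei. With 1 library a stage the scRNA-seq difference was not tested, and the intervals cover counting error only.

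PST nuclei held a median of 10199 and 8548 open peaks in the P0 samples, 5399 in the P21 sample, and 5956 and 12173 in the P56 samples. PCT nuclei of the same samples had medians of 7128, 5420, 5227, 4206 and 7466. PST was higher in 5 of 5 samples, by 2565 ± 1700 open peaks (SD, n = 5 pairs, exact paired permutation p = 0.0625, the smallest p that 5 pairs allow), although the P21 medians were close. Against each of the other clusters except the intercalated cells (IC) PST was higher in 5 of 5 samples, and against IC in 4 of 5. Because of this depth, the share of PST nuclei in which a peak is open cannot be set beside other clusters alone. At the start peaks of 23 genes of fatty acid oxidation and peroxisomes, PST ranked highest of the 13 clusters at 19 by share of nuclei, at 3 by CPM, and at 5 after nuclei were thinned to 1000 open peaks.

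**Figure D1:**
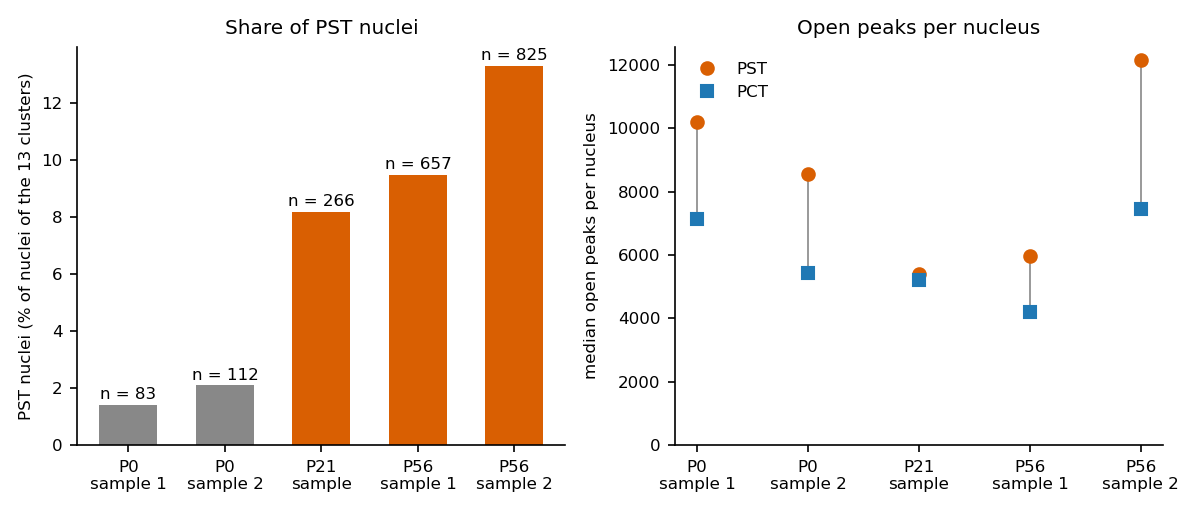
Left, PST nuclei as a percentage of the nuclei of the 13 clusters in each sample, with the number of PST nuclei above each bar (grey, P0, orange, P21 and P56). Right, median open peaks of a nucleus in PST (circles) and PCT (squares), joined by sample. The 2 P0 shares are the lowest, and PST lies above PCT in all 5 samples.

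The 3 marker genes listed for PST in this report did not mark the cluster equally. The start peak of Kap (chr6:133853664-133854084, mm10), which encodes the kidney androgen-regulated protein, was open in 6.02% and 5.36% of PST nuclei at P0, in 25.2% at P21, and in 14.8% and 43.4% at P56. In PCT these shares were between 0.838% and 2.38%, and by CPM PST led all clusters in 5 of 5 samples. The start peak of Slc6a18, a neutral amino acid carrier, was open in 18.8% to 57.2% of PST nuclei and was above PCT by CPM in 4 of 5 samples. Akr1c21, a hydroxysteroid dehydrogenase, did not separate the segments, and the study used it as a marker of both. Among all clusters its start peak had the highest mean share and the highest mean CPM in PST. The mean CPM was 4.54 ± 4.55 (SD, n = 5) in PST, with PCT next at 4.22 ± 3.80. Its start peak was open in 0 to 6.70% of PST nuclei, its level exceeded that of PCT in 3 of 5 samples and its share was below that of PCT after thinning (0.297% and 0.417%), and its gene activity was 1.87 to 18.8 in PST and 2.69 to 20.1 in PCT. PCT genes went the other way, as a start peak of Slc34a1 (at an alternative transcript) held 6.21 to 26.7 CPM in PST and 43.3 to 75.6 in PCT. The study named its clusters from marker genes in the same nuclei, with Kap for the straight and Slc34a1 for the convoluted part. These levels therefore describe the label and do not test it. As marks of the label, Kap and the low PCT genes are used here, with Slc6a18 as a weaker mark and without Akr1c21.

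Markers of other cell types were lower in PST than in their own clusters in samples of the same stage, except those of nephron progenitors (NP) in adult kidney, but the gap differed widely between types. Summed over their start peaks, 4 IC markers had 0 to 1.16 CPM in PST and 112 to 186 in IC, and 5 stromal markers had 3.63 and 5.03 in PST at P0, 1.87 to 2.63 in adult PST and 75.0 to 103 in stroma. The 7 endothelial markers summed to 6.84 to 36.3 in PST against 227 to 345 in endothelium, and both P0 samples, at 28.2 and 36.3, lay above the adult range of 6.84 to 14.9. The 7 podocyte markers summed to 44.0 to 69.4 in PST and 345 to 483 in podocytes. Gaps were narrower for 3 tubule types at P0. The 5 principal cell (PC) markers summed to 50.3 and 56.9 in PST at P0 against 116 and 124 in PC, and to 27.4 to 39.8 against 234 to 301 in adult samples. The 5 markers of the loop of Henle (LOH) gave 19.1 and 19.4 against 47.7 and 57.2 at P0, and 27.4 to 36.4 against 188 to 240 later. The 2 connecting tubule (CNT) markers gave 16.1 and 24.2 against 46.7 and 52.9 at P0, and 10.4 to 12 against 61.3 to 87.7 later. NP markers summed to 25.4 and 26.2 in PST at P0 against 123 and 132 in NP nuclei, but in adult samples to 11.9 to 15.5 in PST and 13 to 30.5 in NP nuclei, which overlap. The 4 immune markers summed to 10.1 and 13.3 in PST at P0 and 1.31 to 4.63 in adult PST, against 102 to 200 in immune nuclei, and the 3 of the distal convoluted tubule (DCT) to 3.73 to 12.1 against 63.2 to 162. No listed marker of these types with a start peak was at 0 in all PST nuclei. Of the PST nuclei, 4, 3, 14, 24 and 24 carried a barcode that also occurred in another sample. Sharing of a barcode between samples does not measure doublets. No doublet caller was run on the deposited nuclei, the removal of doublets before deposit was not given in the sources used here, and the part of doublets in these levels was not tested.

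The cluster annotation was made from the same nuclei, so a comparison of PST with another cluster is a description and is given without p-values. The comparison of stage changes between PST and PCT further below prints an adjusted p that only ranks genes. In a fit over the 65 sums of open calls (13 clusters in 5 samples, edgeR), a gene is called higher or lower in PST than in PCT where the adjusted p passes 0.05, which here only ranks genes. Over the 19551 genes tested, 11.7% were called higher and 9.49% lower in PST than in PCT. Of 21 genes listed for the straight segment, 18 passed the filter on low calls, and 8 of these were called higher and 1 lower. Their median log2 difference was 0.50, against -0.01 over all genes. The 12 genes listed for the convoluted segment behaved oppositely, with 0 called higher, 11 called lower and a median of -1.25. All 9 straight and 11 convoluted calls stood with DESeq2 size factors. In what follows, no replicate block means a fit without the sample as a block, so that clusters of the same sample were not paired. By the DESeq2 Wald test 7 of the 9 straight calls stood, with no replicate block 6, and without any 1 sample 6 to 8. The P0 samples alone kept 3 of them and the adult samples alone all 9. Slc6a18 lost its call by the Wald test, with no replicate block, in the P0 samples alone and without any 1 of the 3 adult samples. The 11 convoluted calls were 9 with no replicate block, 10 by the Wald test and 9 to 11 without a sample. Of the 74 named genes called against PCT, 0 changed sign in the alternatives in which they could be tested.

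Among carriers of the straight list, Slc5a8, a sodium-coupled monocarboxylate carrier, had a gene activity of 42.4 and 56.3 in PST at P0 and of 117, 99.2 and 97.0 in the adult samples. PCT stayed between 25.3 and 37.7, so the clusters did not overlap (log2 difference 1.22 ± 0.288, SE). Slc22a7, the organic anion transporter OAT2, had 50.9 and 48.3 at P0 and 76.5, 65.2 and 88.2 in adult PST. In PCT it had 37.6 and 44.5 at P0 but only 8.16 to 12.5 in adult samples. Slc38a3, a glutamine carrier of the basolateral side, was even in PST, at 72.4 to 90.8, while PCT had 61.9 and 66.7 at P0 and 15.3 to 24.6 later. Slc5a1, the high-affinity glucose carrier SGLT1, had 87.2 to 125 in PST and 51.3 to 72.3 in PCT. Its highest cluster outside the proximal tubule was the loop of Henle (LOH), at 61.7 ± 24.7 (SD, n = 5). Atp11a, a phospholipid flippase, had 177 to 256 in PST and 79.8 to 137 in PCT. Cyp7b1, a steroid hydroxylase, was above PCT in 5 of 5 samples, but PST, at 7.27 to 18.1, did not lead the 13 clusters in any sample, and principal cells (PC) had 49.1 ± 6.5.

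The other straight genes received no call or went the other way. Slc3a1, a subunit of the cystine carrier, had 170 to 344 in PST and 162 to 245 in PCT, and Slc22a13, Ggt1 and Glul also received no call. Slc7a13, the other cystine carrier of this segment, was above PCT in 4 of 5 samples without a call (0.58 ± 0.361). Slc13a3, a dicarboxylate carrier, was called lower in PST (-0.73 ± 0.259), with 122 to 173 in PST and 178 to 290 in PCT. Cyp2e1, a cytochrome P450 that did not pass the filter, had 1.16 to 4.45 in PST and 22.4 to 27.4 in adult PCT. Of the 17 straight genes with a start peak, PST ranked highest by CPM at 11, and after thinning also at 11. For the convoluted genes this was 1 of 12 on both scales.

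The carriers of early reabsorption were low in PST at both stages. Slc5a12, a low-affinity lactate carrier, had 4.84 to 13.7 in PST and 58.6 to 135 in PCT (-4.07 ± 0.322). Slc5a2, the glucose carrier SGLT2, had 2.42 to 7.46 in PST and 18.6 to 66.6 in PCT (-3.52 ± 0.349). Slc34a1, the main phosphate carrier, had 31.0 to 82.7 and 197 to 366 (-2.52 ± 0.223). Of this list only Slc6a19, a neutral amino acid carrier whose gene lies next to Slc6a18, was not called lower, with 138 to 214 in PST and 178 to 253 in PCT. Of the glucose carriers, Slc5a1 was thus higher and Slc5a2 lower in PST.

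**Figure D2:**
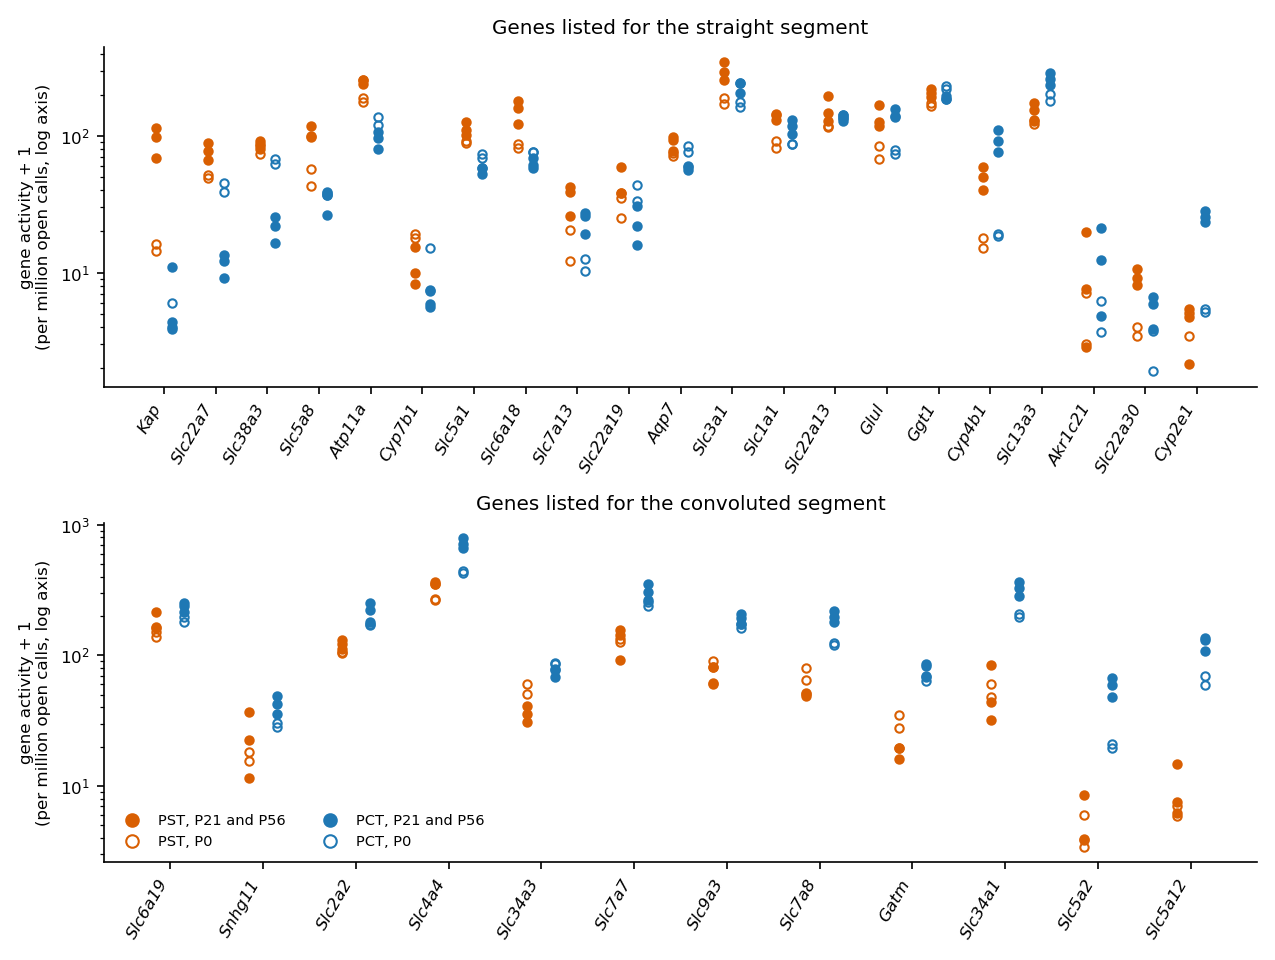
Gene activity plus 1 (CPM, log axis) of the genes listed for the straight (top) and convoluted (bottom) segment in each sample, for PST (orange) and PCT (blue), with open circles for P0 and filled circles for P21 and P56. Genes are ordered by the log2 difference, with genes that were not tested last. Kap, Slc22a7 and Slc5a8 separate the clusters upwards, and Slc5a12, Slc5a2 and Slc34a1 downwards.

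Genes shared by the whole proximal tubule were open in both clusters, with a tilt to PCT. Of 19 listed genes, 0 were called higher and 7 lower in PST, and the median was -0.36. The 7 were the basolateral anion carriers Slc22a6 and Slc22a8, the sulfate carrier Slc13a1, the gluconeogenic enzyme G6pc, the inositol oxygenase Miox, and Amn and Dab2 of the endocytic machinery. With no replicate block 3 of the 7 calls stood (Dab2, Slc13a1 and Slc22a8), and Amn also lost its call without any 1 of the adult samples. Lrp2, the megalin receptor, had 217 to 368 in PST and 283 to 438 in PCT without a call. Of the 23 genes of fatty acid oxidation and peroxisomes, 0 were called higher and 4 lower, among them Cat, Cpt2 and Dao, with a median of -0.09. Cat, catalase, had 50.9 to 120 in PST and 88.3 to 179 in PCT. Cat, Cpt2 and Dao lost their calls with no replicate block, and Dao also without any 1 sample.

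**Figure D3:**
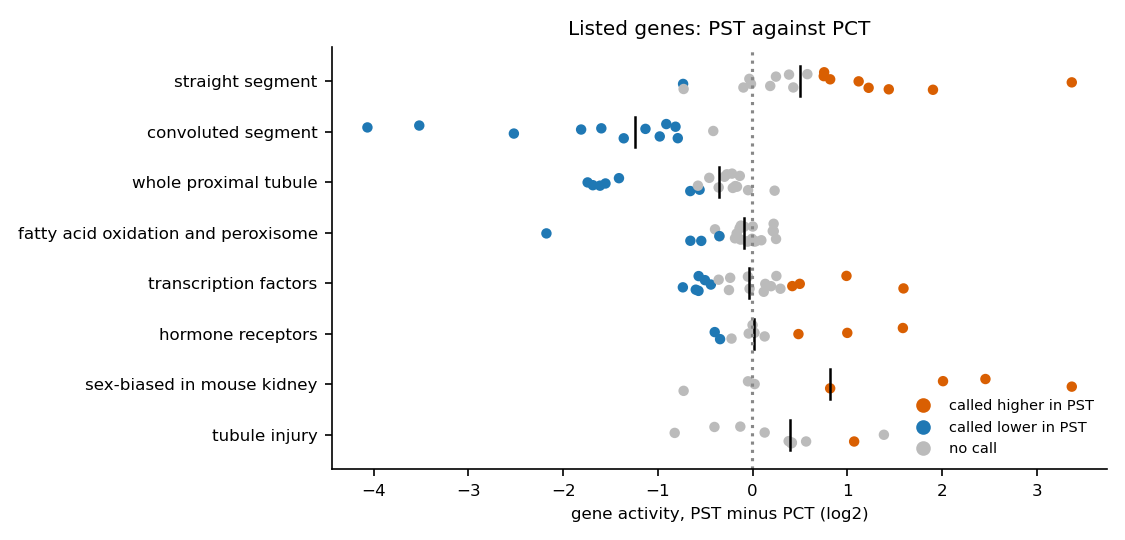
Log2 difference in gene activity between PST and PCT for the tested genes of 8 lists (each point a gene, vertical bars the list medians, dotted line the median of all genes). Orange points were called higher and blue points lower in PST, and grey points received no call. The convoluted genes lie to the left and the straight and sex-biased genes mostly to the right.

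Of 20 listed transcription factors, 10 received no call, 4 were called higher in PST (Stat5a, Stat5b, Cebpd and Nfix) and 6 lower (Ppara, Ppargc1a, Rxra, Esrra, Nr1h4 and Maf). With no replicate block 3 of these 10 calls stood (Stat5b, Cebpd and Rxra), with equal numbers of nuclei 2 (Stat5b and Cebpd), and without any 1 sample 6 to 10. Stat5a lost its call by the DESeq2 Wald test, after thinning, and without the P21 sample or P56 sample 2. Nfix lost its call without any 1 sample other than P0 sample 1. Stat5b, which carries cytokine and growth hormone signals to the nucleus, had 82.4 and 98.6 at P0 and 206, 221 and 251 in adult PST. PCT had 58.4 to 120, and PST led the 13 clusters in 4 of 5 samples. Cebpd, an inducible C/EBP factor, had 51.3 to 101 in PST and 22.6 to 30.8 in PCT (1.59 ± 0.181). Immune nuclei had 93.7 ± 29, and 2 of the 3 peaks in the Cebpd window also lie in that of another gene. Ppara, the fatty acid sensor, had 119 to 238 in PST and 197 to 401 in PCT (-0.74 ± 0.187). Hnf4a, a regulator of proximal tubule genes, and its relative Hnf4g received no call, with log2 differences of -0.24 and -0.05.

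Of 10 listed hormone receptors, 3 were called higher (Prlr, Esr1 and Thrb) and 2 lower (Pth1r and Nr3c1) in PST. The calls of Prlr and Esr1 stood in each alternative, while Thrb, Pth1r and Nr3c1 lost theirs with no replicate block. Thrb also lost its call without P56 sample 2, Pth1r without the P21 sample and Nr3c1 without either. Prlr, the prolactin receptor, which signals through the STAT5 factors, had 220 and 224 at P0 and 484, 398 and 309 in adult PST. PCT had 127 to 207, and the next cluster beyond it was NP at 62.7 ± 27.4. Esr1, the estrogen receptor alpha, had 127 to 245 in PST and 47.5 to 82.1 in PCT (1.59 ± 0.162). Thrb, a thyroid hormone receptor, had 233 to 449 and 196 to 320. Pth1r, the receptor of parathyroid hormone, had 144 to 192 in PST and 187 to 249 in PCT.

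Of 9 genes listed as differing between the sexes in mouse kidney, 7 were tested and 4 were called higher in PST, with 0 lower. They were Kap, the amino acid carrier Slc7a12, the conjugate exporter Abcc3 and Cyp7b1, of which Kap and Cyp7b1 also stand in the straight list. Cyp7b1 lost its call with no replicate block, in the P0 samples alone, and without P0 sample 2, the P21 sample or P56 sample 1. Slc7a12 had 18.2 and 22.1 at P0 and 93.9, 55.7 and 92.7 in adult PST, against 6.51 to 12.1 in PCT. Abcc3 had 55.2 to 82.7 in PST with no order between the stages, and 10.7 to 28.5 in PCT, and immune nuclei had 87.5 ± 40.0. Slco1a1, an androgen-dependent anion carrier, was near 0 in both clusters, with at most 0.622 in PST. Open calls at peaks of the Y chromosome were found in PST in all 5 samples, so the levels of these genes cannot be read against sex here.

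Of 10 injury genes, 1 was called higher in PST than in PCT, which was Havcr1, the kidney injury molecule, with 10.1 to 26.7 in PST and 3.53 to 11.4 in PCT. It lost its call with no replicate block, in the P0 samples alone and without P56 sample 2. Genes of several other cell types were called higher in PST than in PCT in a larger share than the 11.7% of all genes. They were the endothelial Flt1, Plvap and Pecam1 (3 of 7 listed), Atp6v0d2 and Slc4a1 of IC (2 of 5), Ptprc and Tyrobp of immune cells (2 of 6), Pdgfra and Pdgfrb of stroma (2 of 5), Eya1 and Uncx of NP (2 of 5) and Trpv5 of CNT (1 of 3). The list medians were 0.56, 0.88, 0.59, 0.48, 0.66 and -0.13, against -0.01 over all genes. The immune calls were 0 of 2 with no replicate block, in the P0 samples alone, without the P21 sample and without P56 sample 2. Trpv5 lost its call in these settings and by the DESeq2 Wald test, and Pdgfra without any 1 sample. With no replicate block Eya1 also lost its call, and the 3 endothelial and 2 IC calls stood. In the P0 samples alone 0 of the 3 endothelial and 1 of the 2 IC calls stood. With equal numbers of nuclei 0 of the calls that could then be tested stood. None of the podocyte, LOH, DCT, PC and thin limb genes was called higher, of 7, 5, 3, 5 and 6 listed, while Aqp3 and Fxyd4 of PC, Nphs1 of podocytes and Akr1b3 of the thin limb were called lower. Gene activity counts peaks anywhere in the gene body, and the summed start peaks of these markers are those given above. Whether nuclei of other types take part in these calls was not tested.

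Genes were then ranked by lead over all 12 other clusters. Of the 19551 genes, 156 (0.798%) were called higher in PST than in each of them, and 194 (0.992%) had this lead in PCT. PCT was the next cluster for 109 of the 156, and 87 of the 156 had at least 1 peak in their window that was itself called highest in PST. When a sample was left out and genes were called from the other 4, 74.5% to 100% of the called genes also led in the sample left out, against 6.19% to 7.98% of all genes tested. The clusters themselves were defined on all 5 samples, so this is a description of stability only. The call at the threshold was not sharp, as Rundc3a, Ubr4 and Srp68 lay just inside and Agps, Zfp444 and Gm281 just outside. The number called depended on which samples were used. Without P56 sample 2 it was 46, without the P21 sample 55, without P56 sample 1 78 and without P0 sample 2 103.

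The 10 genes with the largest difference from PCT among the 156 were Gm33472, Gm41162, Serpina1f, Serpina11, Kncn, Kap, Rpl36-ps4, AC145590.1, Gm14015 and Tex38. The long noncoding genes Gm33472 and Gm41162 overlap on chromosome 14 and shared all 8 peaks, so that they are 1 signal, with 14.5 and 18.1 at P0, 63.3 to 69.6 in adult PST and 0.694 to 2.47 in PCT (5.16 ± 0.463). Serpina1f, a serpin of the alpha-1-antitrypsin cluster, had 50.9 and 31.2 at P0 and 113, 112 and 132 in adult PST. PCT had 1.31 to 4.21 (4.99 ± 0.456). Its neighbour in the same cluster of genes, Serpina11, had 9.69 to 27.2 in PST and 0.694 to 3.96 in PCT. Kap had 13.3 and 15.1 at P0 and 113, 68.3 and 96.8 later, against 2.85 to 9.95 in PCT (3.37 ± 0.412). Tex38 and Kncn, both on chromosome 4, were even across stages in PST at 9.95 to 14.3 and 7.07 to 16.2. Their windows hold 1 and 2 peaks.

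Of the 77118 peaks tested, 681 (0.883%) were called higher in PST than in each of the 12 other clusters, and 1662 (2.16%) in PCT. By a separate rule, 5600 (7.26%) were higher in both proximal clusters than in all 11 others. That rule did not leave out peaks of the PST or PCT sets, so the sets can overlap. Against PCT alone, 8.6% of peaks were called higher and 11.8% lower, which is 42.1% higher among the calls, and 63.0% with DESeq2 size factors. That scaling moved the median log2 difference of all peaks from -0.10 to 0.14, so the balance of the 2 directions at peaks depends on it. At gene level the median was -0.01 and 0.02. The lead count was 878 with size factors and held 664 of the 681, and it was 192 without P56 sample 2 and 339 without P0 sample 2. Peaks called without a sample led in that sample in 85.1% to 100% of cases, against 8.47% to 9.41% of all peaks tested.

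Peaks highest in PST lay away from gene starts. Only 46 of them (6.75%) overlapped a start, against 22.6% of all peaks tested and 9.81% of those highest in PCT. They were in introns in 43.2%, distal to genes in 32.6%, at exons in 17.6% and in the 5 kb before a start in 6.61%. All tested peaks gave 39.0%, 23.0%, 32.8% and 5.23%. The median distance to the nearest start was 14745 bp, against 9244 bp for peaks highest in PCT. Bases that RefSeq masks as repeats made up 15.7% of their central 300 bp, against 13% in the PCT set and 11.3% over all tested peaks, and the GC content was 47.0%, 48.9% and 52.1%. PCT was the next cluster for 489 (71.8%), LOH for 54 and NP for 48. They were spread over 586 genes, of which 520 had a single such peak and 19 had at least 3.

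The 10 peaks with the largest lead were at Rasgef1c, Spidr, Aadat, Tbc1d16, Slco4c1, Gm30667, AC139348.1, Tmem106b, Thrb and Serpina1f. The intronic peak of Spidr (chr16:15979314-15980532) has Cebpd as its nearest start, 91507 bp away. It held 17.0 and 21.1 CPM at P0 and 49.7, 24.1 and 42.6 in adult PST, and 0.186 to 2.39 in PCT. In an intron of Aadat, the kynurenine aminotransferase (chr8:60523337-60525653), a peak held 35.1 and 46.3 CPM at P0 and 113, 38.7 and 60.8 later, with 0.868 to 4.78 in PCT. The intronic peak of Slco4c1, an organic anion carrier (chr1:96853682-96854200), held 15.7 and 11.1 at P0 and 47.2, 37.2 and 33.7 later, with 0.742 to 2.69 in PCT. That of Thrb (chr14:17891222-17891867) held 8.48 and 10.1 at P0 and 37.9, 35.3 and 25.1 later.

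Of the 8 genes with at least 4 such peaks, Kap and Serpina1f were those where every tested peak was called, 4 of 4 for each. Among the Kap peaks were those at the end of the gene (chr6:133849017-133850191), 2422 bp from its start (chr6:133855874-133856495) and 19027 bp from it (chr6:133872307-133873271). Atp11a had 4 called peaks of 16, with 1 of them 17071 bp from its start (chr8:12739205-12740681) at 8.48 and 12.1 CPM at P0 and 45.4, 56 and 51.9 later. Prlr had 2, of which the peak at chr15:10317481-10318338 held 7.27 and 4.02 at P0 and 43.5, 34.5 and 25.9 later.

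The sequences below, read from GRCm38.p6 on the strand given and from 5′ to 3′, show where letters of the searched motifs fall. Capitals mark matches to any of 16 motifs. The stretch near the Kap start (chr6:133853687-133853716, minus strand, 49 to 20 bases before the start that RefSeq gives, inside the start peak) is shown because it holds the steroid receptor letters ACANNNTGT, which 5.84% of 32851 RefSeq promoters hold in the 250 bases before the start:
Kap start: gggacagagtACAGGATGTataaaagccca
The central 300 bases of the peak in the Slco4c1 intron (chr1:96853791-96854090, plus strand) hold the C/EBP letters TTGCNNAA at position 74, counted from 1 at the 5′ end:
Slco4c1 intron: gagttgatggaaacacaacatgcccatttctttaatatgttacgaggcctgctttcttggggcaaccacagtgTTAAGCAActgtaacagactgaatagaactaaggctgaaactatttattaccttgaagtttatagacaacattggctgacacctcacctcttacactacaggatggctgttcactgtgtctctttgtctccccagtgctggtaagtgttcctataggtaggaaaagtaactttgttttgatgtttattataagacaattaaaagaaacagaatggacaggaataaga

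Letters of the STAT5 motif (TTCNNNGAA) were found in the central 300 bp of 108 of the 681 peaks highest in PST (15.9%), against 8.48% of those highest in PCT, 11.2% of those high in both and 9.20% of all tested peaks. In introns and distal peaks alone the shares were 15.9% in PST, 8.35% in PCT and 10.3% over all. Over whole peaks they were 27.2%, 19.98% and 22.4%. The C/EBP letters were in 15.9% of the PST peaks, 12.6% of the PCT peaks and 11.7% of all, but in introns and distal peaks alone in 14.9%, 13.6% and 13.3%. The POU letters (ATGCAAAT) were in 3.08%, 1.02% and 1.52%. These shares were not tested, and a match is not a bound site.

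HNF4 letters (CAAAGTCCA) were in 2.94% of the PST peaks, 3.61% of the PCT peaks and 5.04% of the peaks high in both, all above the 1.00% of all tested peaks. TFAP2 letters (GCCNNNGGC) were in 8.37% of the PST peaks and 14.6% of all, on sequences that were less rich in GC. ETS letters (CCGGAAGT) were in 0 of 681 PST peaks and 1 of 1662 PCT peaks, against 1.39% of all and 0.488% of all introns and distal peaks. Over whole PST peaks they were in 4 of 681. Other motifs searched were the PPAR and RXR repeat (GGTCAAAGG), ERR (TCAAGGTCA), AP-1 (TGANTCA), NFI (TGCCAAG), the GATA factors (AGATAAG), CTCF (AGNGGGCGC), NRF2 (TGACNNNGC), FOX (TGTTTAC) and the steroid receptor letters. Their shares in PST peaks were 0.734%, 0.294%, 11.5%, 9.10%, 2.06%, 0.587%, 10.6%, 5.29% and 9.84%, against 0.544%, 0.843%, 9.71%, 7.76%, 3.24%, 1.98%, 13.7%, 4.70% and 8.53% of all. Both strands were searched, and matches of different motifs may overlap.

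**Figure D4:**
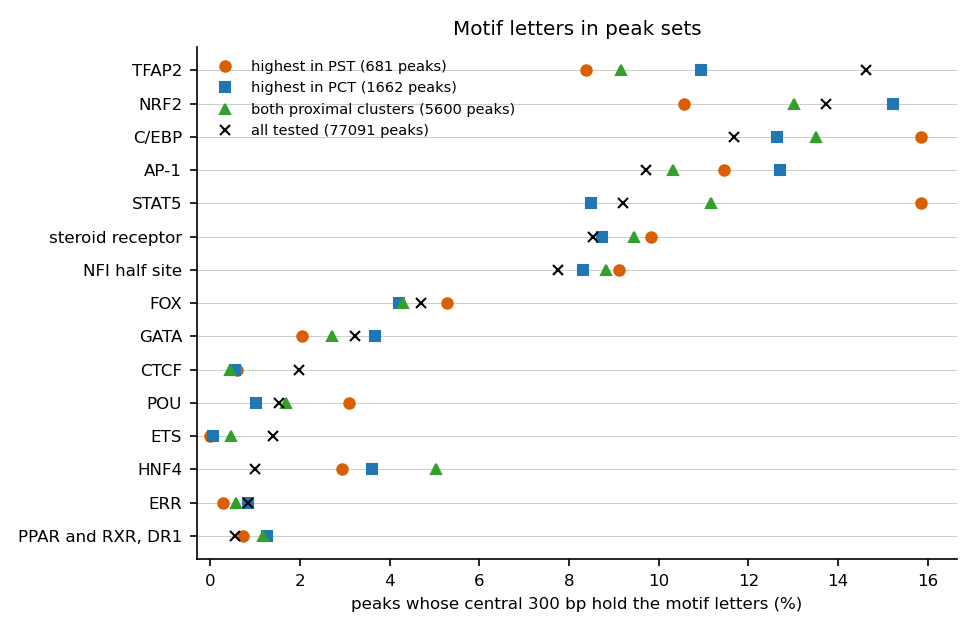
Share of peaks (percent) whose central 300 bp hold the letters of each of 15 of the 16 motifs, for peaks highest in PST (orange circles), highest in PCT (blue squares), high in both proximal clusters (green triangles) and all tested peaks (crosses). STAT5 shows the widest gap in percentage points between the PST set and the PCT set, at 15.9% against 8.48%, with 11.2% in the set high in both and 9.20% of all.

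The 3 intronic or distal peaks with the largest lead that hold STAT5 letters are shown because this motif had the widest gap from the PCT set in percentage points. They were chosen after the shares were seen, as was the peak with POU letters. All 3 lay in introns on the plus strand as printed:
Zmat4 intron: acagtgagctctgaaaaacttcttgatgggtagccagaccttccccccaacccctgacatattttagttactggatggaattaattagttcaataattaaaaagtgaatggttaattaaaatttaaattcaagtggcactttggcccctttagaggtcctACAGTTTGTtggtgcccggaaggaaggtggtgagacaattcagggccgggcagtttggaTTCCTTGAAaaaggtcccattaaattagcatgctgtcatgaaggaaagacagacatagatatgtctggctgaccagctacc
Tbc1d1 intron: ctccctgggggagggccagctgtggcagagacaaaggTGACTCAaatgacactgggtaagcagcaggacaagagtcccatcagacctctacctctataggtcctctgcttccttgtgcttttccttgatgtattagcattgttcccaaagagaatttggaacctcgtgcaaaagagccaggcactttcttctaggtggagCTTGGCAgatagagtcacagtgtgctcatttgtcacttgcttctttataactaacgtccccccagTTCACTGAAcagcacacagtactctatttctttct
Zbtb44 intron: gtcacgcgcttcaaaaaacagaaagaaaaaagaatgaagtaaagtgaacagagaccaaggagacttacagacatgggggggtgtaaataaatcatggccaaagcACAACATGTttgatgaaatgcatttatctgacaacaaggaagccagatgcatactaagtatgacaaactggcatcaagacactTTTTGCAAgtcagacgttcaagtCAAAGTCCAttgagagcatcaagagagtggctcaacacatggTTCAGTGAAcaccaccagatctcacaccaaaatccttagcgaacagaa
They lie at chr8:23738826-23739125, chr5:64185486-64185785 and chr9:31003061-31003360. The STAT5 letters begin at positions 220, 266 and 253. The Zbtb44 window also holds the HNF4 letters at 211 and the C/EBP letters at 188. A window of Slc39a8, which encodes a zinc and manganese carrier (chr3:135930925-135931224), is the leading intronic or distal peak with POU letters. These begin at 267 and overlap C/EBP letters at 269, and an AP-1 match at 227 overlaps an NRF2 match:
Slc39a8 intron: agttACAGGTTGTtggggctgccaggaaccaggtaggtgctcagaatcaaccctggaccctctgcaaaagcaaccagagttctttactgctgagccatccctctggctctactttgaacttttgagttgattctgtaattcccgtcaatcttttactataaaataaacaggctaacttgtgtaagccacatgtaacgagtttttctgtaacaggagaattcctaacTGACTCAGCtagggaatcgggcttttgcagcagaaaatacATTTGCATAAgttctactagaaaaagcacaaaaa
These 4 peaks were open in few PCT nuclei. The Slc39a8 peak held 31.5 and 32.2 CPM at P0 and 41.7, 36.4 and 29.9 in adult PST, against 1.1 to 5.98 in PCT. The Zmat4 peak held 21.8 and 14.1 at P0 and 14.3, 17.8 and 15.0 later, with 3.96 and 4.19 in PCT at P0 and 0.110 to 0.465 in adult PCT.

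Stage was not part of the rule, so P0 was tested against adult within PST (edgeR quasi-likelihood test, Benjamini-Hochberg adjusted). By the study's methods, P0 kidneys were lysed in a smaller volume of buffer than the older ones, so stage and this step cannot be told apart. Of 17408 genes, 7.91% were called higher at P0 and 5.87% higher in adult PST. That put 57.4% of the calls towards P0, against 45.3% after thinning to 1000 open peaks. These calls rest on both P0 samples, with 2398 in all but 61 without P0 sample 1 and 43 without P0 sample 2, where the lone P0 sample is assumed to vary as the adult ones do. Of the 20 straight genes tested, 10 were higher in adult samples and 0 at P0, with a median log2 difference of -0.76 against -0.03 over all genes. Without P0 sample 1, and likewise without P0 sample 2, Kap was the 1 call of these 10 that remained, and after thinning to 1000 open peaks 0 of the 9 that could be tested remained. Of 11 convoluted genes, 1 was called, which was Slc4a4, the basolateral bicarbonate carrier, higher in adult PST. Of 19 genes of the whole proximal tubule, 11 were higher in adult samples and 0 at P0.

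Kap had the largest adult gain among the called straight genes, at -2.76 ± 0.283 (log2 of P0 over adult, SE, adjusted p = 0.000435), with all 3 adult samples above both P0 samples. Cyp4b1 (-1.74 ± 0.288, adjusted p = 0.00358) and Slc7a13 (-1.26 ± 0.344, adjusted p = 0.0311) followed. For Cyp4b1, a cytochrome P450 of fatty acid and xenobiotic hydroxylation, PST had 17.0 and 14.1 at P0 and 49.1, 58.4 and 39.4 later. Among the factors and receptors, Stat5a had 31.5 and 26.2 at P0 and 96.4, 89.8 and 92.4 in adult PST (-1.78 ± 0.188, adjusted p = 0.000441), and Stat5b gave -1.41 ± 0.162 (adjusted p = 0.000756). Prlr gave -0.90 ± 0.164 (adjusted p = 0.00529) and Ghr, the growth hormone receptor, -1.38 ± 0.245 (adjusted p = 0.00467). In all, 9 of 20 factors and 6 of 10 receptors were higher in adult PST, and Nfix alone was called higher at P0 (0.57 ± 0.175, adjusted p = 0.0485 in edgeR). Nfix lost this call by the DESeq2 Wald test, with no filter, with equal numbers of nuclei, after thinning, and without the P21 sample or P56 sample 1. The Nfix call and the 6 receptor calls rest on both P0 samples. After thinning 3 of the 6 receptor calls stood (Ghr, Prlr and Thrb).

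Keg1, an acyltransferase of kidney and liver, and Slc17a1, a urate and phosphate carrier, were the whole-tubule genes with the next largest adult gains after G6pc (-2.25 ± 0.387, adjusted p = 0.00419). Slc17a1 had 40.0 and 37.2 at P0 and 160, 136 and 153 in adult PST (-2.04 ± 0.173, adjusted p = 0.000127). Of 22 genes of fatty acid oxidation and peroxisomes, 4 were higher in adult PST (Cat, Scp2, Cyp4a14 and Ehhadh) and 0 at P0. Of these, 0 stood without either P0 sample or after thinning, Ehhadh also lost its call by the DESeq2 Wald test, with equal numbers of nuclei and without either P56 sample, and Cyp4a14 without P56 sample 1. Among injury genes, Sox4 (1.43 ± 0.344, adjusted p = 0.0181) and Clu (0.91 ± 0.231, adjusted p = 0.023) were higher at P0. Sox4 had 58.1 and 32.2 at P0 and 14.3, 22.0 and 11.2 later. In PST, the summed start peaks of the NP, endothelial, immune, stromal, PC and CNT markers were above all adult samples in both P0 samples, as given above. In PCT the same held for these lists except PC, as for endothelium at 21.8 and 22.3 at P0 and 7.98 to 10.0 in adult PCT. The PC markers summed to 47.5 and 55.6 in PCT at P0 and 52.2 to 60.1 in adult PCT. The part of these markers in the P0 calls was not tested.

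The genes with the largest changes by stage rested on few open calls. The 10 higher at P0 were Gm26979, Gm11587, Ccdc8, Prrg3, Lamp5, Hephl1, C130073E24Rik, Selplg, Isl1 and Cyp26c1, with 12 to 35 open calls in the P0 nuclei. Ccdc8, a partner of the scaffold Cul7, had 19.4 and 13.1 CPM at P0 and 0.622, 1.05 and 0.737 later (4.15 ± 0.517, adjusted p = 0.00124). The 10 higher in adult PST were Acnat2, Gm48010, AC138228.2, Gm14102, H1fnt, AC121552.1, Gm31314, Gm10542, Gm14009 and Il18bp. Acnat2, a peroxisomal acyltransferase, had 0 open calls in both P0 samples and 8.70, 21.7 and 16 CPM in adult PST, which is at least 10.1-fold higher against a floor of 3 calls over the group. Il18bp, the interleukin-18 binding protein, had 4.84 and 0 at P0 and 24.2, 27.2 and 34.8 later (-3.80 ± 0.59, adjusted p = 0.00283).

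At the level of peaks, 6.99% of 45868 peaks tested in PST were called higher at P0 and 9.04% higher in adult samples. Without either P0 sample 0 peaks were called by edgeR, with 13015 and 12439 at an unadjusted p under 0.05. The DESeq2 Wald test on all 5 samples called 5805 against 7352. Of these calls 50.6% were higher at P0 by the Wald test and 43.6% in edgeR. With no filter the share was 13.3% and after thinning 19.4%. Of the 681 peaks highest in PST, 162 (23.8%) were called higher in adult samples and 9 at P0, with a median of -0.41. For the peaks highest in PCT, of which 1108 could be tested in PST, the counts were 80 and 116. The lead was called over all 5 samples, 3 of them adult, so nothing is read from these counts. Called within a stage, 1466 of 59004 peaks tested led in PST in the adult samples alone and 35 of 174406 in the P0 samples alone. The fits held 1748 and 195 PST nuclei, so depth, number of samples and stage cannot be told apart in these counts.

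The stage change of PST was set against that of PCT by the interaction over the 10 sums of both clusters. The cluster labels came from the same nuclei, in PST 1748 adult and 195 at P0, so the adjusted p here only ranks genes. Of 19540 genes, 1.64% were called towards P0 and 1.77% towards adult in PST relative to PCT. Of the 21 straight genes, 7 were called towards adult (Slc6a18, Slc22a7, Slc22a19, Slc5a8, Slc38a3, Aqp7 and Atp11a) and 0 towards P0. Of the 156 genes highest in PST, which include Slc22a7, Slc5a8, Slc38a3 and Atp11a, 66 were called towards adult and 0 towards P0. Of the 194 highest in PCT, 24 were called towards P0 and 1 towards adult. These leads were called over all 5 samples, 3 of them adult, so nothing is read from the direction of the calls. Of the 12 convoluted genes, 2 were called towards P0, namely Gatm, which makes the creatine precursor, and Slc7a8, a basolateral amino acid carrier. Gatm had 26.6 and 34.2 at P0 and 15.2 to 18.7 in adult PST, where PCT went from 63.1 and 68.3 to 67.6 to 85.4 (1.14 ± 0.271, adjusted p = 0.03). Its call was lost by the DESeq2 Wald test, with equal numbers of nuclei, with no replicate block, after thinning, and without either P0 sample or P56 sample 2. That of Slc7a8 was lost without P0 sample 1. The total of 666 calls was 296 by the DESeq2 Wald test, 33 after thinning, 37 without P0 sample 1 and 58 without P0 sample 2, and of the 7 straight genes 3 and 2 stayed called.

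The 10 genes with the smallest p were Uroc1, Mep1b, Hrasls5, Frzb, Bcat1, Kcnk1, Slc22a7, AC151478.1, Methig1 and Lrrfip1, all towards adult in PST. The adult mean was above the P0 mean in PST and below it in PCT for all 10. Mep1b, Hrasls5, Slc22a7, AC151478.1 and Methig1 are also among the 156 genes highest in PST, so nothing is read from their direction. Uroc1, the urocanate hydratase of histidine breakdown, had similar levels in both clusters at P0, with 61.8 and 70.4 in PST and 67.6 and 66.1 in PCT. In adult samples PST had 70.9, 85.1 and 103 and PCT 12.7, 16.1 and 20.8 (-2.37 ± 0.173, adjusted p = 1.11e-05). Hrasls5, a phospholipid acyltransferase, went from 35.1 and 45.3 to 66.5, 57.8 and 85.0 in PST and from 49.7 and 52.9 to 8.54, 14.5 and 15.7 in PCT (-2.74 ± 0.257, adjusted p = 0.000105).

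Frzb, a secreted Wnt antagonist, stayed at 79.6 to 109 in PST and went from 74.7 and 78.9 to 12.4 to 26.0 in PCT. It was also open in NP nuclei, at 65.7 ± 11. A different form was seen for Kcnk1, a two-pore potassium channel, which went in PST from 52.1 and 54.3 to 218, 204 and 215 and was at 22.7 and 24.0 in PCT at P0 and 9.83 to 18.4 later (-2.78 ± 0.286, adjusted p = 0.000194). Mep1b, the beta subunit of the brush border protease meprin, had 66.6 and 76.5 at P0 and 134, 114 and 120 in adult PST. In PCT it went from 37.9 and 39.2 to 6.31 to 11.8 (-2.98 ± 0.271, adjusted p = 0.000105). Bcat1, the cytosolic branched-chain aminotransferase, was likewise higher in PST at both stages, but NP nuclei had 125 ± 57.8. All 11 peaks of Methig1 were shared with the windows of other genes.

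**Figure D5:**
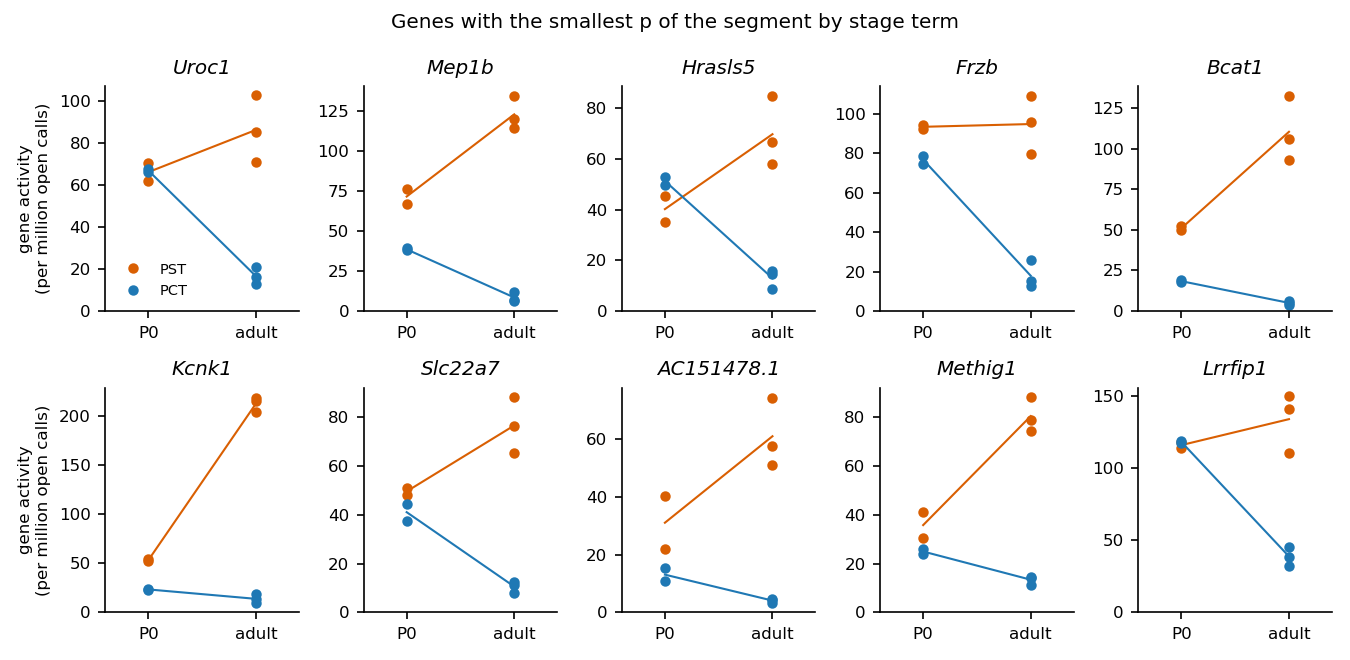
Gene activity (CPM) of the 10 genes with the smallest p of the interaction at P0 and in adult samples, for PST (orange) and PCT (blue). Points are samples and lines join the stage means. At P0 Uroc1, Hrasls5 and Lrrfip1 lie close in both clusters, and in adult samples PST lies above PCT in all 10 panels.

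The PST against PCT contrast called 6143 genes in the adult samples alone and 1858 in the P0 samples alone, on 1748 and 195 PST nuclei, so depth and stage cannot be told apart in these counts. Among the 8 straight genes called higher over all samples and the 1 called lower, 9 kept the call in adult samples alone and 3 in P0 samples alone. All 11 convoluted genes kept it in both.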

How the data were processed

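Nuclei of 5 mouse kidney samples were profiled by snATAC-seq. Per the labels, the authors aligned reads to mm10 with Cell Ranger ATAC 1.1.0. By the same labels, they called peaks with MACS2 separately on the nuclei of each cell type and joined the lists. Peaks of clusters with few nuclei could still be missed. Clusters came from 5 kb bins of the same nuclei after integration over samples. The deposited counts are binarized, with 1 where a nucleus had a fragment in a peak, for 300755 peaks and 28316 nuclei. They were read as open calls, and the 664 nuclei of 2 other clusters were left out. The scRNA-seq cell annotation was used for shares only, and 6 bulk samples were not used.

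Open calls were summed per cluster and sample into 65 sums of at least 20 nuclei, per peak and per gene (27805 genes, of which 22458 held a peak). Genes are as annotated on mm10 (GRCm38). Features with low calls were filtered (minimum count 10, total 15). The counts were tested by quasi-likelihood in edgeR 4.0.16 after TMM scaling (R 4.3.3) and Benjamini-Hochberg adjustment at 0.05, over all features. The fits between clusters and the interaction had the sample as a block, and the stage fit in PST used its 5 sums. DESeq2 1.42.0, other filters, thinning to 1000 open peaks, equal numbers of nuclei and leaving out each sample were alternatives. The scripts were tested on simulated data. Shares and depths were compared with exact permutation tests (scipy 1.17.1). Depth was 825710 to 9494152 open calls per PST sum. Named genes were all listed genes plus the 10 with the largest difference (or smallest p for the interaction) in each contrast. The members and lists were chosen with earlier results of these data known. Sequences were read from GRCm38.p6, and 77091 of the tested peaks were scanned. Some listed genes, peaks and motif shares are not reported here.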

Additional observations from a re-analysis of the deposited data

Results flagged for a closer look

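The stage difference (log2 of P0 over adult) differed between PST and PCT, by the interaction term of edgeR with Benjamini-Hochberg adjustment over 19540 genes, for the following named genes. The cluster labels came from the same nuclei, so the adjusted p only ranks genes, and no explanation was tested. A negative value means more towards adult in PST than in PCT.

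The genes with the smallest p were Uroc1 (-2.37), Mep1b (-2.98), Hrasls5 (-2.74), Frzb (-2.15), Bcat1 (-3.05), Kcnk1 (-2.78), Slc22a7 (-2.62), AC151478.1 (-2.65), Methig1 (-2.05) and Lrrfip1 (-1.83). Among carriers and channels, the term was -1.69 for Slc38a3, -2.16 for Slc7a12, -1.12 for Slc6a18, -1.08 for Slc17a1, -1.38 for Slc22a19, -1.17 for Slc5a8 and -0.75 for Aqp7. It was 1.26 for Slc7a8, 0.96 for Slc8a1 and 1.35 for Aqp3.

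Among the genes highest in PST it was -3.09 for Kncn, -3.04 for Gm33472 and for Gm41162, which share all their peaks, -2.81 for Rpl36-ps4, -2.51 for AC145590.1, -2.48 for Serpina1f and -2.29 for Tex38. Also among the 156 genes highest in PST are Mep1b, Hrasls5, Slc22a7, AC151478.1, Methig1, Slc38a3, Slc7a12, Slc5a8 and Atp11a. The lead of all of them was called over 5 samples, 3 of them adult, so nothing is read from the direction of their terms. The term was -0.89 for Atp11a, -1.09 for Cebpd, -1.65 for G6pc and -1.14 for Flt1, and 1.52 for Sox4 and 1.14 for Gatm. Gm31314, with 1 open call in PST at P0, had -5.37, which rests on that count.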

How the results depend on the processing

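Counts of calls differed between the settings given here. Peaks highest in PST (681) were 2695 with no filter, 5 after thinning, 159 with no replicate block, 1466 in adult samples alone and 35 in P0 samples alone (28 of them shared). With equal numbers of nuclei edgeR called 0 (20 at an unadjusted p under 0.05). Leaving out a sample gave 192 to 599. Genes highest in PST (156) were 48 after thinning, 14 with equal numbers, 36 with no replicate block, 274 in adult and 36 in P0 samples alone, and 46 to 137 without a sample. For PST against PCT, peaks (15733) were 40739 with no filter, 1013 thinned, 80 with equal numbers, 6444 with no replicate block and 7584 to 14023 without a sample. Genes (4147) were 1688, 536 and 1453 under thinning, equal numbers and no replicate block, 1858 in P0 samples alone and 2245 to 3612 without a sample. The size-factor split of peaks was 8778 higher and 5161 lower, against 6630 and 9103.

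For stage in PST, peaks (7352) were 19184 with no filter, 31 thinned, 3486 with equal numbers, 11713 with P56 alone as adult and 0 to 11713 without a sample. Genes (2398) were 1574 by the DESeq2 Wald test, 95 thinned and 43 to 2885 without a sample. The interaction (666) was 296 by DESeq2, 33 thinned, 333 with equal numbers, 127 with no replicate block and 37 to 994 without a sample. Its one change of sign among named genes was Slc8a1, at -0.053 after thinning. Samples at P0 and P56 share only a replicate number (correlation of deviations 0.0729 over 17408 genes). With the replicate number as a block in the stage fit, the calls were 7381 peaks and 2447 genes, and 3 of 71 named genes were lost. The share difference was -9.65 to -7.08 points and the depth difference 2030 to 3164 without a sample. Motif shares over whole peaks highest in PST were 27.2% (STAT5), 4.99% (POU), 29.5% (C/EBP), 17.0% (TFAP2) and 4.26% (HNF4). Over all tested peaks they were 22.4%, 3.87%, 27.8%, 29.5% and 2.11%. Of the named genes, 582 of 788 stage results and 758 of 907 results against PCT kept their call, and 0 reversed. The cause of these changes was not tested beyond the smaller sums in the thinned and equal settings. The P0 sums of 195 nuclei limit what the stage contrasts could detect.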
